A study of Mus musculus with 6 samples.

Results

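The 10 nuclear genes described here encode proteins that copy, transcribe and package mitochondrial DNA (*Tfam*, *Polrmt*, *Tfb1m*, *Tfb2m*, *Polg* and *Ssbp1*) or that fuse and divide mitochondria (*Mfn1*, *Mfn2*, *Opa1* and *Dnm1l*). They were taken by name as a group with these functions, with earlier results of these data known. Each of the 10 had 1 row among the 25899 gene symbols of the expression table, which gives FPKM (fragments per kilobase of exon, scaled to the mapped reads of the library). All 10 had a mean above 1 FPKM in at least 1 fraction and were tested, among 10578 genes in all. *Tfam* and *Ssbp1* passed that filter through the NP fraction only.

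Both groups came from oocytes of aged female (AF) mice, which the labels give as CD1 females of 58 weeks. The methods of the study name the strain ICR and give a somewhat lower age. Females received 5 IU of pregnant mare serum gonadotropin 46 h before collection, and fully grown oocytes were freed of surrounding cells and cultured for 180 min without the phosphodiesterase inhibitor that holds meiosis. After nuclear envelope breakdown (NEBD), ribosomes were stalled with 0.1 mg/ml cycloheximide for 10 min, and 200 oocytes per sample were lysed and separated on a sucrose gradient into 10 fractions. Fractions with free RNA and single ribosomes were pooled as non-polysomal (NP), and those with polysomes as polysomal (P), with 3 AF NP and 3 AF P libraries. Both pools of a sample came from its own gradient, and the sources used here do not state which NP and P libraries share a sample beyond their equal numbers. FPKM is scaled within each library, so a ratio of P over NP compares relative abundances and does not give the portion of a gene's mRNA that sat on polysomes. In pooled oocytes, less of an mRNA in every oocyte and fewer oocytes holding it cannot be told apart.

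Mitochondrial DNA encodes a small set of respiratory chain subunits, while everything needed to replicate, transcribe and package it is encoded in the nucleus. A fully grown oocyte holds more copies of this genome than most cells, and after transcription stops at the end of growth its protein supply depends on the translation of stored mRNAs. Fusion is carried out by mitofusins in the outer membrane and OPA1 in the inner membrane, and division by the dynamin-related protein DRP1, the product of *Dnm1l*.

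Stored oocyte mRNAs are often controlled through short elements near the end of the 3′ UTR. The cytoplasmic polyadenylation element (CPE, TTTTAT or TTTTAAT), bound by CPEB proteins, acts with the poly(A) signal (AATAAA or ATTAAA). These letters were searched on the sense strand in the last 100 bases of 1 annotated transcript per gene (GENCODE M21, GRCm38). All 10 genes had a poly(A) signal there. *Mfn1* alone among the 10 had a CPE in that stretch, while 19.5% of 8489 tested genes with such a stretch had one. Over the whole annotated 3′ UTR, other members had CPEs as well. There were 6 in *Opa1*, 5 in *Ssbp1*, 4 in *Mfn1*, 3 in *Polg*, 2 in *Dnm1l* and 1 each in *Tfam* and *Tfb2m*. The 30-base sites below are all in 3′ UTR exons and are shown as the CPE of *Mfn1*, the poly(A) signal of its paralogue *Mfn2*, which has no CPE in that stretch, and the poly(A) signal of *Tfam*, the gene listed at 0 in every P library. Capitals mark the motifs.
Mfn1, CPE: tttacaaaacatTTTTATaagtatgcaagc
Mfn2, poly(A) signal: attggaaactaaAATAAAgccccatttgtg
Tfam, poly(A) signal: tgcattatttaaATTAAAtgctaaacaaga
The *Mfn1* site lies at chr3:32579164-32579193 on the plus strand and the *Mfn2* site at chr4:147873605-147873634 on the minus strand. The *Tfam* site is at chr10:71225469-71225498 on the minus strand. A match describes the annotated ends only, and the ends used in these oocytes were not measured.

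Sequencing depth differed widely. Low FPKM values fall on steps that correspond to single reads, and these gave estimated depths of 1237799, 18096676 and 12131030 reads in the NP libraries and 163822, 1141531 and 1549317 in the P libraries. Of the tested genes, between 83.8% and 97.8% were above 0 in an NP library and between 57.9% and 82.0% in a P library, and FPKM summed to 597261 to 633110 in NP and 246182 to 393876 in P. Over all tested genes the log2 ratio of P over NP had a median of -1.03, which is the level against which the members' ratios stand. The 13 oocyte markers (such as *Gdf9* and *Zp3*) were all at 40.4 FPKM or above in every library. Of 12 granulosa and cumulus markers, 6 (*Amh*, *Fshr*, *Inhba*, *Foxl2*, *Hsd17b1* and *Amhr2*) were listed at 0 throughout. The summed level of the 12 ranged from 11.2 to 131 FPKM in NP and from 1.54 to 16.5 in P. Most of the highest sum was *Cyp19a1* at 104 FPKM in AF NP 3. Of 7 blood and immune markers in the table, 6 were listed at 0 in every library and *Cd68* reached 0.643 FPKM in AF NP 1. The part of these differences in depth and markers in the members' ratios was not tested.

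None of the 10 genes differed between P and NP past the threshold, an adjusted p under 0.1 in limma over all genes tested, where 1.82% of all tested genes did (190 lower and 2 higher in P, against 2 and 2 under quantile normalization and 1 and 2 under median-of-ratios rescaling). *Polrmt* had an unadjusted p below 0.05 (15.8% of all tested genes did). The log2 ratio was below 0 in 8 of the 10 (80.1% of all tested genes) and above 0 in *Mfn1* and *Dnm1l*. The median over the 10 was -0.75 beside the -1.03 of all genes, with 6 members above that median and 4 below. Under quantile normalization, which moved the median of all genes to 0.0027, the members' median became 0.25 and 4 of the 10 ratios were below 0. Under median-of-ratios rescaling, with a median of all genes of -0.43, 7 were below 0. All 3 NP libraries lay above all 3 P libraries in *Polrmt*, an order that 23.2% of all tested genes showed. *Tfam* had the same order by its listed values, but it passed the filter through NP only, and the order of AF NP 3 against the P libraries could not be told from 1 read.

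**Figure D1:**
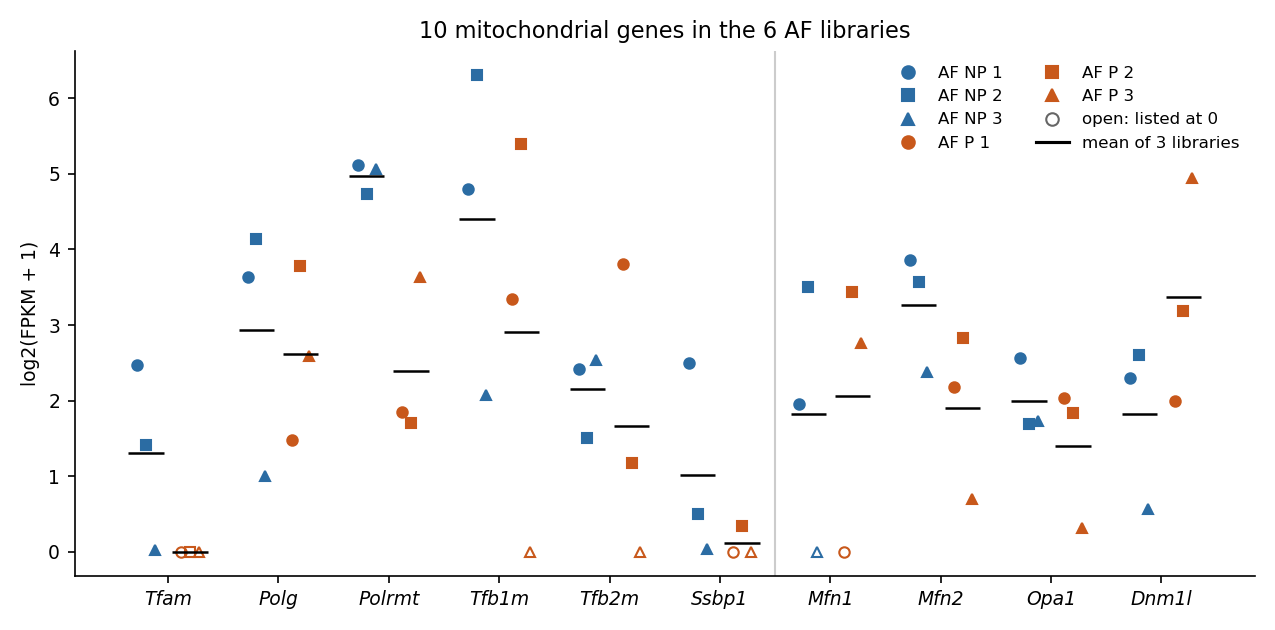
Level of each of the 10 genes as log2(FPKM + 1) on the y axis, with 1 point per library (blue NP, orange P, marker shape for the replicate number), open markers for values listed at 0 and bars for the mean of 3 libraries; genes of DNA maintenance are left of the grey line and genes of fusion and fission right of it. The NP and P points are apart in *Polrmt*, the *Tfam* point of AF NP 3 sits beside the P points at 0, and the points of the other 8 genes overlap, in *Ssbp1* through values of about 1 read.

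Transcription of mitochondrial DNA starts when TFAM bends the promoter and TFB2M joins the RNA polymerase POLRMT. *Polrmt* (chr10:79736123-79746581, minus strand) encodes that polymerase, which also makes the primers for replication. Its level was 33.6, 25.5 and 32.6 FPKM in AF NP 1 to 3 and 2.61, 2.24 and 11.4 in AF P 1 to 3. The 3 NP values were close together and the groups did not overlap, with AF P 3 the highest of the P libraries. The means were 30.6 ± 4.41 FPKM in NP and 5.43 ± 5.21 in P (SD, n = 3), 5.63-fold higher in NP. On the log2(FPKM + 1) scale the ratio of P over NP was -2.58 (SE 1.13), with an adjusted p of 0.281 in limma. Its 95% interval of -4.91 to -0.24 includes the median of all genes tested. Of all tested genes, 11.2% had a lower ratio.

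About 195, 2164 and 1852 reads stood behind its NP values and 2, 12 and 83 behind its P values. AF NP 1, AF P 2 and AF P 3 had similar depth, between 1141531 and 1549317 reads, and there *Polrmt* had 195 reads in NP against 12 and 83 in P. This subset was chosen after the values were seen and is alike in depth only, since FPKM summed to 611904 in AF NP 1 and to 246182 and 393876 in AF P 2 and AF P 3. With any 1 library left out the *Polrmt* log2 ratio stayed between -3.20 and -2.23. It was -1.67 under median-of-ratios rescaling and -1.63 under quantile normalization, with adjusted limma p of 0.679 and 0.681.

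*Tfam* (chr10:71225464-71238280, minus strand) encodes the protein that packages mitochondrial DNA into nucleoids and bends its promoters. It was at 4.55, 1.67 and 0.0186 FPKM in AF NP 1 to 3 and was listed at 0 in all 3 P libraries, as were 10.8% of all tested genes. The NP values rested on about 25, 134 and 1 reads. A value of 0 allowed up to 3 reads, which for *Tfam* is 4.13 FPKM in AF P 1, 0.592 in AF P 2 and 0.436 in AF P 3. The levels of AF NP 1 and AF NP 2 lay above the limits of AF P 2 and AF P 3, but AF NP 3 lay below all 3 limits, so its order against the P libraries could not be told at this depth. At like depth, AF NP 1 had 25 reads and AF P 2 and AF P 3 had none.

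The mean *Tfam* level in NP was 2.08 ± 2.29 FPKM (SD, n = 3), and the SD exceeded the mean. The fitted log2 ratio was -1.31 (SE 0.82), with an interval from -3.01 to 0.40 and an adjusted limma p of 0.431. That size depends on the 1 FPKM added before the logarithm and is not a bound. *Tfam* was close to the lowest of the 10 genes in both fractions, and 39.0% of the genes with a mean above 0 in NP had a lower mean.

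The paralogues *Tfb1m* and *Tfb2m* arose from a family of rRNA methyltransferases. TFB2M is the transcription initiation factor, and TFB1M methylates the small mitochondrial rRNA. *Tfb1m* (chr17:3519263-3557713, minus strand) was at 26.8, 78.5 and 3.23 FPKM in AF NP 1 to 3 and at 9.20, 40.9 and 0 in AF P 1 to 3. The groups overlapped, and in both fractions replicate 2 was the highest and replicate 3 the lowest. The means were 36.2 ± 38.5 FPKM in NP and 16.7 ± 21.5 in P (SD, n = 3). The log2 ratio was -1.48 (SE 1.38), with an interval from -4.35 to 1.39 and an adjusted limma p of 0.563. With 1 library left out it ran from -2.72 without AF P 2 to -0.026 without AF P 3. The 0 in AF P 3 allowed up to 1.46 FPKM, which is below the 3.23 of AF NP 3. *Tfb1m* shares 135 exon bases with *Tiam2* on the opposite strand, and the strand setting of the counting is not given in the sources used here. *Tiam2* was at 211 FPKM in AF P 1 and 2.06 in AF P 3, and reads of the 2 genes over these bases cannot be told apart.

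*Tfb2m* (chr1:179528055-179546267, minus strand) was at 4.32, 1.83 and 4.82 FPKM in NP. The AF P 1 value of 13.1 FPKM rested on about 6 reads and the AF P 2 value of 1.25 on about 4, and in AF P 3, listed at 0, up to 0.691 FPKM would have been possible. The highest P value therefore came from the shallowest library, and the groups overlapped. The fit gave *Tfb2m* a log2 ratio of -0.49 (SE 1.25), from -3.08 to 2.10, with an adjusted limma p of 0.854. *Tfb2m* shares 1187 bases at 99.3% identity with the transcript *Gm1818*, and 223 bases at 90.6% identity with *1500011B03Rik*, so reads could be split between them and the level of each is uncertain. *Gm1818* was at 0, 0.253 and 0.241 FPKM in AF NP 1 to 3 and at 15.3, 0.730 and 0 in AF P 1 to 3, and its highest value fell in the same library as that of *Tfb2m*. *1500011B03Rik* was at 4.25 to 31.0 FPKM in NP and at 19.2 or above in P.

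Relative to its paralogue, *Tfb1m* varied within each fraction. The log2 ratio of *Tfb1m* over *Tfb2m*, with 1 FPKM added to each, was 2.38, 4.81 and -0.46 in AF NP 1 to 3 and -0.46, 4.22 and 0 in AF P 1 to 3. *Tfb1m* was far above *Tfb2m* in replicate 2 of both fractions and slightly below it in AF NP 3 and AF P 1. The mean was 2.24 ± 2.64 in NP and 1.25 ± 2.58 in P (SD, n = 3). The difference of -0.99 had an exact two-sided permutation p of 0.6, where 0.1 is the smallest that 3 against 3 libraries allow, and 0.6 after adjustment over the 2 paralogue pairs.

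*Polg* and *Ssbp1* serve replication, the first as the catalytic subunit of DNA polymerase gamma and the second as the protein that coats single-stranded mitochondrial DNA. *Polg* (chr7:79448791-79466362, minus strand) was at 11.5, 16.6 and 1.01 FPKM in AF NP 1 to 3 and at 1.78, 12.8 and 5.00 in AF P 1 to 3. The highest NP and P values were close and the lowest value of all was AF NP 3, so the groups overlapped over most of their range. The means were 9.69 ± 7.94 FPKM in NP and 6.53 ± 5.67 in P (SD, n = 3). The log2 ratio of -0.31 (SE 1.28) had an interval from -2.96 to 2.34 and an adjusted limma p of 0.915. At like depth *Polg* had about 97 reads in AF NP 1, 100 in AF P 2 and 53 in AF P 3. The sign of the *Polg* ratio changed when AF NP 1 (0.043), AF NP 2 (0.29) or AF P 1 (0.26) was left out. *Polg* shares 858 annotated exon bases with *Fanci* on the opposite strand, which was at 19.2 to 21.9 FPKM in NP and 0.560 to 10.6 in P.

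*Ssbp1* (chr6:40471352-40481823, plus strand) stood at 4.62, 0.416 and 0.0248 FPKM in AF NP 1 to 3 and at 0, 0.264 and 0 in AF P 1 to 3. AF NP 1 was the high library, with about 19 reads, and the single P value above 0 rested on about 1 read. AF NP 3 and AF P 2 rested on about 1 read each, so their order could not be told. AF NP 1 alone gave 91.3% of the summed NP level, and without it the gene no longer passed the filter on low values. For *Ssbp1* the log2 ratio was -0.90 (SE 0.80), from -2.56 to 0.77, with an adjusted limma p of 0.548. *Ssbp1* also shares 447 bases at 97.8% identity with the transcript *Gm12115*, which leaves its level uncertain.

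**Figure D2:**
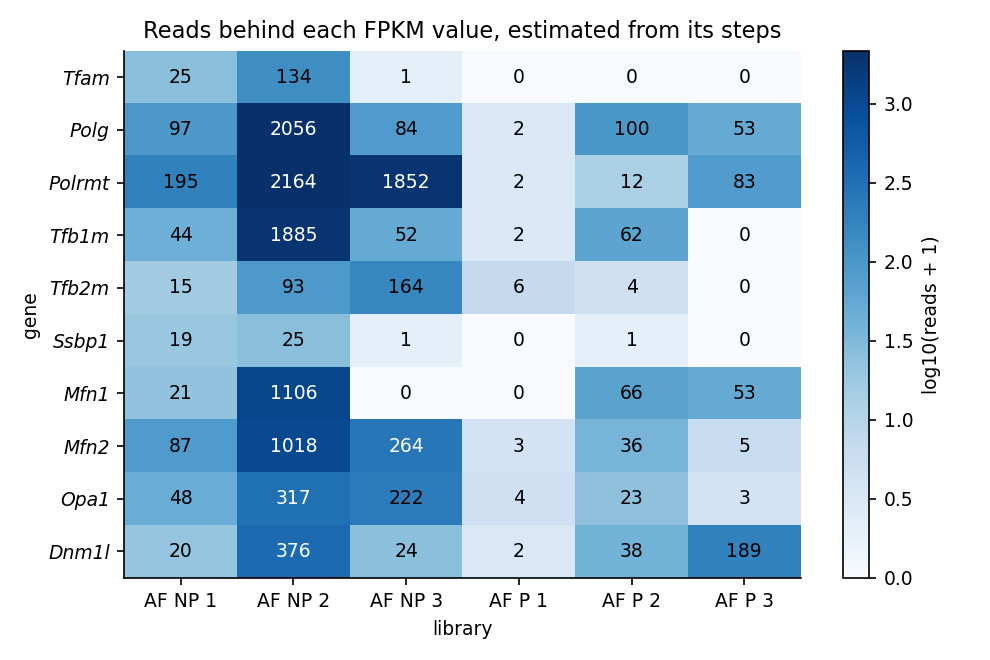
Estimated reads behind each FPKM value, with genes as rows, libraries as columns and colour on a log10(reads + 1) scale. AF P 1 held at most 6 reads of any of the 10 genes, while AF NP 2 held between 25 and 2164.

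The outer membrane mitofusins MFN1 and MFN2 tether and fuse neighbouring mitochondria, and MFN2 also links mitochondria to the endoplasmic reticulum. *Mfn1* (chr3:32529465-32579239, plus strand) stood at 2.87, 10.3 and 0 FPKM in AF NP 1 to 3 and at 0, 9.79 and 5.79 in AF P 1 to 3. Each fraction had 1 library at 0, and replicate 2 was the highest in both, so the groups overlapped fully. The 0 in AF NP 3 came from a deep library and allowed up to 0.0419 FPKM, while the 0 in AF P 1 allowed up to 3.10. The means were 4.41 ± 5.34 FPKM in NP and 5.19 ± 4.92 in P (SD, n = 3). The log2 ratio was 0.25 (SE 1.31), from -2.46 to 2.95, with an adjusted limma p of 0.935. It was below 0 when AF NP 3 (-0.66), AF P 2 (-0.44) or AF P 3 (-0.10) was left out.

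*Mfn2* (chr4:147873599-147904704, minus strand) was at 13.5, 10.8 and 4.19 FPKM in AF NP 1 to 3 and at 3.53, 6.07 and 0.621 in AF P 1 to 3. The highest P library lay above the lowest NP library, and the other values were ordered with NP above P. The means were 9.52 ± 4.81 FPKM in NP and 3.41 ± 2.73 in P (SD, n = 3), 2.79-fold higher in NP. *Mfn2* had a log2 ratio of -1.37 (SE 1.23), from -3.92 to 1.18, with an adjusted limma p of 0.549. It was -0.59 under median-of-ratios rescaling, -0.052 under quantile normalization and -0.77 without AF P 3. At like depth the reads were about 87 in AF NP 1, 36 in AF P 2 and 5 in AF P 3.

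Within a library the share of *Mfn1* in the summed FPKM of both mitofusins was 17.5%, 48.9% and 0% in AF NP 1 to 3 and 0%, 61.7% and 90.3% in AF P 1 to 3. *Mfn2* was thus the higher mitofusin in every NP library, and *Mfn1* was the higher in AF P 2 and AF P 3. AF P 1 held about 3 reads of *Mfn2* and none of *Mfn1*, and could not order them. The log2 ratio of *Mfn1* over *Mfn2*, with 1 FPKM added to each, had a mean of -1.45 ± 1.22 in NP and 0.17 ± 2.16 in P (SD, n = 3). The difference of 1.61 had an exact two-sided permutation p of 0.3, and 0.6 after adjustment over the 2 pairs. It ranged from 0.66 without AF P 3 to 2.79 without AF P 1. Over all genes, those with a CPE in the last 100 bases had a median log2 ratio of -0.86 (n = 1655 genes). Those without had -1.04 (n = 6834 genes), a description across genes with no test. Whether the CPE of *Mfn1* bears on its ratio was not tested.

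*Opa1* (chr16:29579334-29654884, plus strand) encodes the dynamin-like GTPase that fuses inner membranes and shapes cristae. It was at 4.92, 2.22 and 2.32 FPKM in AF NP 1 to 3 and at 3.10, 2.56 and 0.246 in AF P 1 to 3. Except for AF P 3, where about 3 reads were found, the P values lay within the range of NP. The means of 3.16 ± 1.53 FPKM in NP and 1.97 ± 1.52 in P (SD, n = 3) had the smallest SD in NP of the 10 genes. *Opa1* had a log2 ratio of -0.60 (SE 1.14), from -2.95 to 1.75, with an adjusted limma p of 0.794. Without AF P 3 it was -0.063, and under quantile normalization 0.62.

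*Dnm1l* (chr16:16312235-16359030, minus strand) encodes DRP1, the GTPase that constricts and divides mitochondria. It was at 3.93, 5.06 and 0.482 FPKM in AF NP 1 to 3 and at 2.97, 8.11 and 29.7 in AF P 1 to 3. AF P 3 was the highest and AF NP 3 the lowest, and AF P 1 lay inside the range of NP, so the groups overlapped. The means were 3.16 ± 2.39 FPKM in NP and 13.6 ± 14.2 in P (SD, n = 3), 4.30-fold higher in P. AF P 3 alone gave 72.8% of the summed P level. The log2 ratio of 1.55 (SE 1.27) had an interval from -1.08 to 4.18 and an adjusted limma p of 0.516.

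Few genes had a ratio above that of *Dnm1l*, since 98.3% of all tested genes had a lower ratio. It kept its sign with any 1 library left out, between 0.77 and 2.24, and was 2.40 under median-of-ratios rescaling and 2.67 under quantile normalization. At like depth the reads were about 20 in AF NP 1 against 38 in AF P 2 and 189 in AF P 3. *Dnm1l* and *Polrmt* thus had the highest and the lowest ratio of the 10 genes, with 1 FPKM added and all libraries kept. With 0.1 FPKM added instead, *Tfam* was lower than *Polrmt* (-3.31 against -2.86). Without AF NP 3, *Tfb1m* was lower than *Polrmt* (-2.64 against -2.53). *Dnm1l* shares 243 exon bases with the antisense transcript *Gm49521* and 1347 bases at 91.2% identity with *Gm13719*, neither of which was matched by name to a row of the table, so its level is uncertain.

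**Figure D3:**
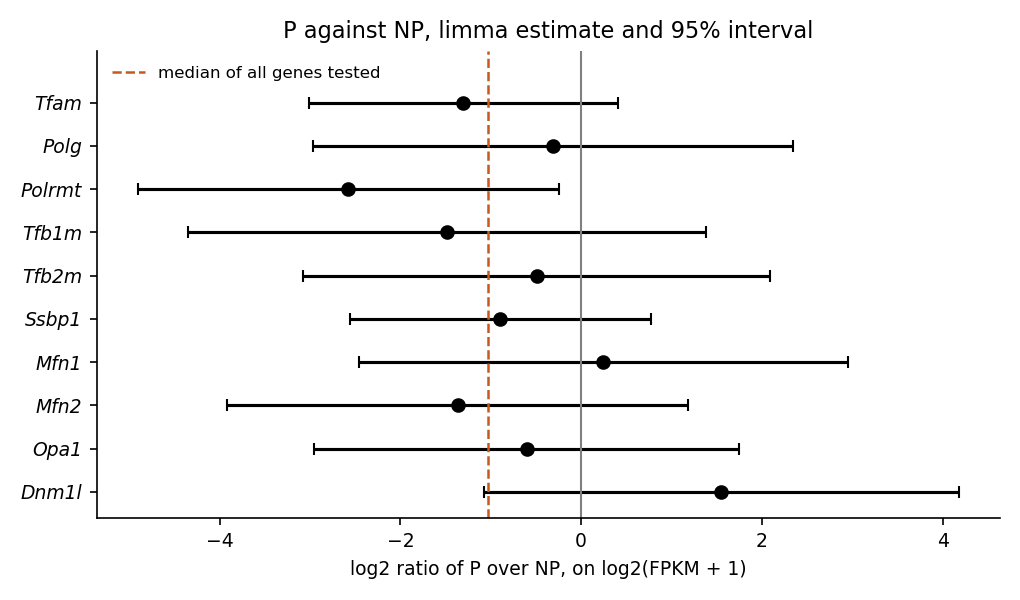
The log2 ratio of P over NP for the 10 genes on the x axis, with points for the limma estimate, bars for its 95% interval, a grey line at 0 and a dashed line at the median of all genes tested (-1.03). The interval of *Polrmt* lies below 0, and the intervals of the other 9 genes include 0. The intervals of all 10 genes include the median of all genes tested.

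FPKM is given per length of exon, so the listed levels of the genes are set side by side as a description. The length behind them is uncertain for 5 members, among them *Tfb1m* (1327 bases implied, 3609 annotated) and *Ssbp1* (3319 implied, 8360 annotated). Shared bases also leave the levels of *Tfb2m*, *Ssbp1* and *Dnm1l* uncertain. The orders below therefore hold for the listed values only. In NP the order by mean was *Tfb1m*, *Polrmt*, *Polg*, *Mfn2*, *Mfn1*, *Tfb2m*, *Dnm1l*, *Opa1*, *Tfam* and *Ssbp1*, from 36.2 to 1.69 FPKM. Of the 9 pairs of neighbours, 3 held their order in all 3 NP libraries, namely *Polrmt* above *Polg*, *Mfn2* above *Mfn1* and *Opa1* above *Tfam*. The other 6 pairs changed order in at least 1 library and did not differ beyond their spread. *Tfb1m* lay above 81.4% and *Polrmt* above 79.3% of the genes with a mean above 0 in NP, and the other 8 members above 36.1% to 62.0% of them. In P the order was *Tfb1m*, *Dnm1l*, *Polg*, *Polrmt*, *Mfn1*, *Tfb2m*, *Mfn2*, *Opa1*, *Ssbp1* and *Tfam*, from 16.7 FPKM to 0, by listed values. There *Mfn2* above *Opa1* and *Opa1* above *Ssbp1* held in all 3 libraries as listed, but AF P 1 held about 3 reads of *Mfn2* and 4 of *Opa1*, and the 0 of *Ssbp1* allowed more than the *Opa1* level in AF P 1 (5.52 against 3.10 FPKM) and AF P 3 (0.583 against 0.246). No neighbour order in P could therefore be told in all 3 libraries.

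The genes of DNA maintenance and those of fusion and fission are set side by side as a description. All 6 genes of maintenance had a log2 ratio below 0, as did 80.1% of all tested genes, with a median of -1.10. Under quantile normalization 3 of the 6 had a ratio below 0 and under median-of-ratios rescaling 5, and *Tfam* and *Ssbp1* had passed the filter through NP only. Of the 4 genes of fusion and fission, *Mfn2* and *Opa1* had ratios below 0 and *Mfn1* and *Dnm1l* above 0, with a median of -0.18. That median changed sign with the scaling, to 1.10 under quantile normalization and 0.53 under median-of-ratios rescaling. The median of all tested genes moved as well, from -1.03 to 0.0027 and -0.43. The member with the highest listed level also differed between libraries. It was *Polrmt* in AF NP 1 and AF NP 3, *Tfb1m* in AF NP 2 and AF P 2, *Tfb2m* in AF P 1 and *Dnm1l* in AF P 3. At least 9 members were above 0 in each NP library, and 7, 9 and 6 were above 0 in AF P 1 to 3.

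The products of this transcription machinery could not be read from the table. All 13 mRNAs encoded by mitochondrial DNA, such as *mt-Co1* and *mt-Cytb*, were listed at 0 in all 6 libraries. No level or ratio is given for them.

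Other nuclear genes of the same pathways were followed in 8 lists of 84 genes, of which 66 passed the filter, 13 of them through NP only and 5 through P only, which sets the direction those genes could show. In limma over all genes tested, 1 of the 66 fell past the threshold in P (1.80% of all tested genes were called lower) and 0 rose (0.0189% were called higher), and 14 had an unadjusted p under 0.05, where 15.8% of all tested genes had. The log2 ratio was below 0 in 55 of the 66 (80.1% of all tested genes), with a median of -1.32. It was below 0 in 40 under quantile normalization and in 47 under median-of-ratios rescaling. Those scalings moved the median of all tested genes from -1.03 to 0.0027 and -0.43. In 22 of the 66, or 33.3%, the NP libraries all lay above the P libraries, as in 23.2% of all tested genes. With the replicate number as a block 5 of the 66 were called lower (6.27% of all tested genes), namely *Phb2*, *Apoo*, *Twnk*, *Slc25a33* and the MICOS subunit *Immt*, which was named after its values were seen. The gene called was *Phb2*, a prohibitin of the inner membrane that scaffolds the processing of OPA1. It was at 966, 843 and 871 FPKM in AF NP 1 to 3 and at 102, 120 and 212 in AF P 1 to 3. The NP libraries lay far above the P libraries, and the log2 ratio was -2.69 (SE 0.63), with an adjusted limma p of 0.0496. Over 14 alternatives its log2 ratio stayed below 0, between -3.00 and -1.69, and the adjusted limma p ranged from 0.0155 to 0.651. The call was lost in 7 of them, among them each that left out an NP library (0.356 without AF NP 1, 0.291 without AF NP 2 and 0.165 without AF NP 3). It was also lost under median-of-ratios rescaling (0.651), under quantile normalization (0.580), without the filter (0.273) and without the trend (0.173).

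Around *Phb2*, the list of fusion, inner membrane proteases and cristae had 15 tested genes, 13 of them with a ratio below 0, and a median of -1.38. The 2 with a ratio above 0 passed the filter through P only, and 2 of the others through NP only. *Apoo*, a subunit of the cristae complex MICOS, was at 56.4 to 103 FPKM in NP and 0 to 24.7 in P, with a log2 ratio of -4.02 and an adjusted limma p of 0.113 (0.0394 with the block). *Chchd6*, another MICOS subunit, had a log2 ratio of -2.61, and *Phb*, the partner of PHB2, had -2.31, neither past the threshold. Among 8 tested genes of fission and outer membrane adaptors, 6 had a ratio below 0, with a median of -0.94, and 1 passed the filter through P only. The DRP1 receptor *Mff* had a log2 ratio of -0.029 and *Fis1* had -1.25, with AF P 3 at 182 FPKM the highest of the *Fis1* libraries, as for *Dnm1l*. The *Fis1* ratio ran from -2.69 without AF P 3 to -0.026 without AF P 1. *Dnm2* had -1.78, *Mtfr1* -2.22 and *Mtfr2* (listed as *Fam54a*) 0.054.

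For replication and repair, the 9 tested genes had ratios below 0, with a median of -1.05, and 3 of them passed the filter through NP only. The helicase Twinkle (*Twnk*, listed as *Peo1*), which unwinds DNA ahead of POLG, was at 16.4, 17.1 and 34.2 FPKM in AF NP 1 to 3 and at 0, about 1 and 0.185 in AF P 1 to 3. *Twnk* is 1 of these 3, so the filter fixed the direction of its ratio. Its log2 ratio of -4.06 had an adjusted limma p of 0.113 (0.0418 with the block). *Rnaseh1*, *Endog* and *Lig3* had log2 ratios of -0.78, -0.91 and -2.44, and *Endog* ranged from 0 to 414 FPKM within P. Of 11 tested genes of transcription and RNA processing, 8 had a ratio below 0, with a median of -1.89. Of the 11, 2 passed the filter through NP only and 2 through P only. The elongation factor *Tefm* (listed as *1110002N22Rik*), which acts with POLRMT, was at 1.54 to 4.78 FPKM in NP and at 0 in all P libraries. *Tefm* passed the filter through NP only, which fixed the direction of its ratio. In a gene of 2 kb, a 0 in AF P 1 would allow up to 9.16 FPKM. The RNA processing genes *Elac2*, *Supv3l1* and *Slirp* (listed as *1810035L17Rik*) had log2 ratios of -1.41, -1.89 and -2.88, none past the threshold.

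The 8 tested genes of the nucleoid and nucleotide supply had a median log2 ratio of -1.08, with 5 below 0. The protease *Lonp1*, which degrades free TFAM, had a log2 ratio of 0.47, the thymidine kinase *Tk2* 0.64, the chaperone *Hspa9* -0.97, *Samhd1* -2.04 and the pyrimidine nucleotide carrier *Slc25a33* -3.96 (adjusted limma p of 0.142, and 0.0490 with the block). *Slc25a33* passed the filter through NP only, which fixed the direction of its ratio. The 4 tested biogenesis regulators had a median of -1.31 and ratios below 0, and 2 of them (*Ppargc1b* and *Gabpa*) passed the filter through NP only. *Nrf1*, a transcription factor for *Tfam* and other mitochondrial genes, was at 18.5 to 40.1 FPKM in NP and 3.39 to 8.90 in P (log2 ratio -2.03). *Ppargc1b* was at 1.21 to 1.88 FPKM in NP and at 0 in all P libraries, and the NRF2 subunits *Gabpa* and *Gabpb1* had log2 ratios of -1.32 and -0.10. *Gabpa* was at 17.0 FPKM in AF NP 1 and at 0 in AF NP 2 and AF NP 3, so its ratio rested on 1 library. The 6 tested genes of mitophagy, 2 of which passed the filter through NP only, had ratios below 0 with a median of -1.43, *Usp30* at -1.24, *Mul1* at -1.94 and *Bnip3l* at -3.02. Of 5 tested transport genes, 4 had a ratio below 0, with a median of -0.86. *Trak2*, at -1.93, passed the filter through NP only, which fixed the direction of its ratio. *Rhot1* was at -0.033, *Trak1* at -0.86 and *Rhot2* at -2.71. Of these genes *Slc25a33* passed the threshold with the block and *Rhot2* without AF P 3 (adjusted limma p of 0.0875).

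**Figure D4:**
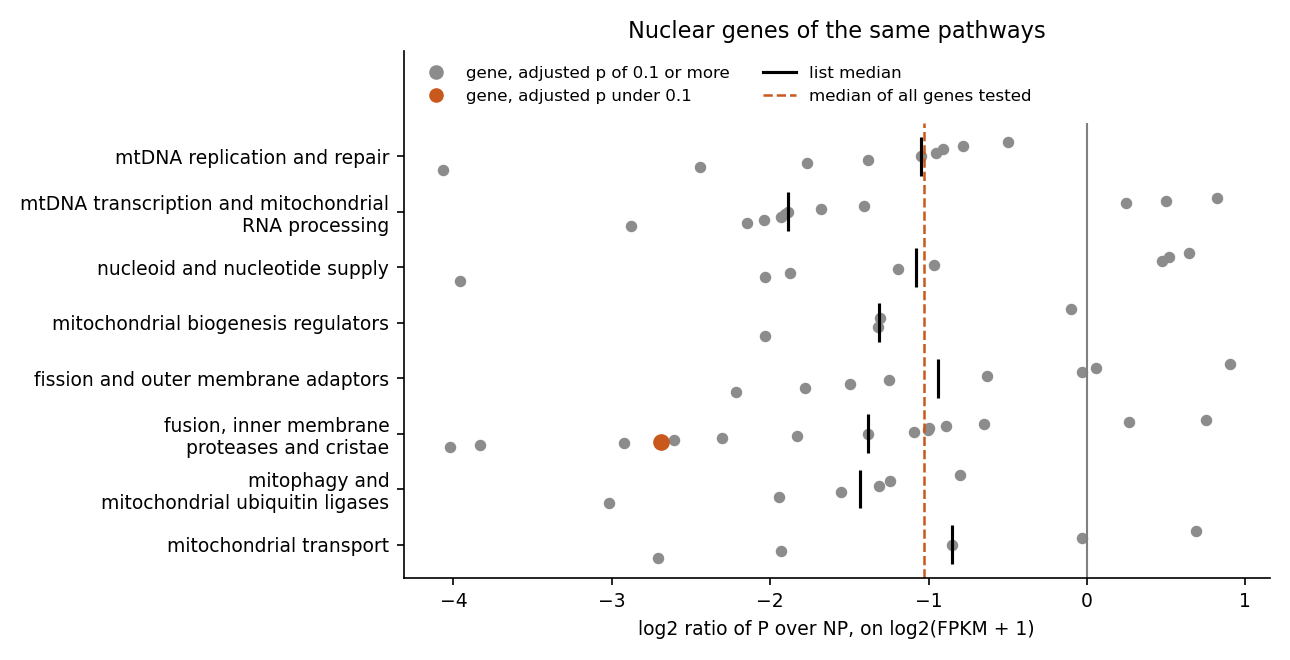
The log2 ratio of P over NP on the x axis for the 66 tested nuclear genes of 8 pathway lists, with 1 point per gene, a black bar for each list's median, a grey line at 0 and a dashed line at the median of all genes tested. *Phb2*, the orange point at -2.69, is the gene with an adjusted p under 0.1.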

How the data were processed

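Total RNA of the NP and P pools was depleted of rRNA, amplified (REPLI-g WTA) and tagmented (Nextera). The authors trimmed reads (Trim Galore 0.4.1), aligned them to GRCm38 (HISAT2 2.0.5) and deposited FPKM per gene from Seqmonk, with 3 libraries per fraction. The sources used here name neither the annotation release nor the strand setting. The table also holds 2 columns of the authors' means, which were not used. For a repeated symbol (58 in 25965 rows) the row with the highest mean was kept. limma 3.58.1 with a trend (R 4.3.3) was run on log2(FPKM + 1) for genes with a mean above 1 FPKM in either fraction, with Benjamini-Hochberg adjustment over 10578 genes and a threshold of 0.1. Intervals are 95% and use limma's degrees of freedom. The paralogue ratios were tested by exact permutation. No source says whether samples are separate pools of animals, so p-values measure the spread between these samples, which may be technical.

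Depth was estimated from steps of low FPKM values with the exon lengths of GENCODE M21. Between 55.6% and 61.5% of values at up to 30 reads were then whole within 0.02, so the values were not taken as counts and no count model was used. Reads of 5 members were whole at the annotated length, and those of the other 5 at the smallest length that gave whole reads, so the latter may be multiples. Reads are amplified and limits from 3 reads cover counting error only. Shared bases were found with BLAST 2.17.0 (200 bases or more at 90% identity or more).

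In data simulated for this comparison over 10578 genes, all 200 genes given a log2 change of 2 were called at a residual SD of 0.3 and 12 of 200 at 1.22, the median here. Members and gene lists were chosen with earlier results of these data known. Named list genes are those past the threshold, the 3 with the highest mean and the 2 with the smallest p in each list, after matching of older symbols. *Fanci*, *Tiam2*, *Gm1818*, *1500011B03Rik*, *Gm12115*, *Gm49521* and *Gm13719* were named for bases they share with members, and the libraries of like depth were chosen after the values were seen.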

Additional observations from a re-analysis of the deposited data

How the results depend on the processing

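No member passed the threshold under any alternative. The count of all tested genes called, 192 (2 higher in P), was 69 (2 higher) with a pseudocount of 0.1, 65 at a threshold of 0.05, 15 without the trend, 4 with quantile normalization, 3 with median-of-ratios rescaling (2 higher in each) and 0 without the filter (limma, 1759 at an unadjusted p under 0.05). It ranged from 1 to 331 with 1 library left out, the lowest without AF NP 3 and 4 and 12 without AF NP 1 and AF NP 2. The members' median log2 ratio, -0.75, was -1.65 with a pseudocount of 0.1 and 0.25 with quantile normalization, and -1.33 (without AF NP 3) to -0.20 (without AF P 3) with 1 library left out. Of 134 refitted member ratios, 122 kept their direction and 12 changed it, in 5 of the genes. Median-of-ratios rescaling turned *Polg* to 0.59, and quantile normalization turned *Polg* to 0.95, *Opa1* to 0.62, *Tfb2m* to 0.48 and *Ssbp1* to 0.011. The 33 named list genes were refitted in the same ways, a choice made after the data were seen. Of 458 values 33 changed direction, in 10 genes. A pseudocount of 5 gave *Mtfr2* -0.035 and *Mff* 0.0042. Median-of-ratios rescaling gave *Endog* 0.049, *Gabpb1* 0.58, *Mff* 0.94, *Rhot1* 0.92, *Rnaseh1* 0.21 and *Trak1* 0.12, and quantile normalization gave *Gabpb1* 1.17, *Hspa9* 0.38, *Mff* 1.01, *Rhot1* 1.12, *Rnaseh1* 0.21 and *Trak1* 0.053. With 1 library left out *Mtfr2* ran from -1.26 to 1.03, *Endog* from -3.24 to 1.11, *Gabpb1* from -0.61 to 0.35, *Mff* from -0.79 to 0.43, *Rhot1* from -0.50 to 0.55, *Hspa9* from -1.88 to 0.55, *Lonp1* from -0.92 to 1.39, *Tk2* from -0.39 to 1.95, *Dnm2* from -3.03 to -0.86, *Samhd1* from -3.66 to -0.83, *Trak1* from -1.54 to -0.076, *Slirp* from -4.30 to -1.95, *Apoo* from -5.19 to -2.85, *Slc25a33* from -5.02 to -3.37, *Chchd6* from -3.57 to -1.37, *Bnip3l* from -3.57 to -2.34, *Rhot2* from -3.48 to -2.17, *Lig3* from -3.25 to -1.48, *Phb* from -3.14 to -1.44, *Mul1* from -2.57 to -1.41 and *Gabpa* from -2.02 to -1.29. Leaving out 1 library took *Polg* from -1.27 to 0.29, *Mfn1* from -0.66 to 1.28 and *Tfb2m* from -1.57 to 0.34. The difference in *Tfb1m* to *Tfb2m* ran from -2.48 to 0.29 (without AF NP 2). Without AF P 3, *Apoo* (0.0173), *Chchd6* (0.0665) and *Rhot2* (0.0875) passed the threshold. The cause of these changes was not tested. A mean above 5 FPKM left 6 members to test and brought *Twnk* past the threshold (0.0981), and *Tfam* and *Ssbp1* were not tested without AF NP 1. Nor was *Gabpa*, which was above 0 in NP in that library only, so its range above holds no fit without it. With the replicate number as a block, 668 genes were called and still 0 members, while the list genes *Apoo*, *Twnk* and *Slc25a33* passed the threshold. After each gene's mean within its fraction was subtracted, the remaining log2(FPKM + 1) values of same-numbered libraries correlated by 0.063, 0.099 and 0.116. Each was the best for its own number. Each sample gave an NP and a P pool, so equal numbers may mark 1 sample, which the sources used here do not state, and the block is given as an alternative. Adjusted p ranged from 0.176 to 0.681 over the alternatives for *Polrmt*, from 0.171 to 0.887 for *Tfam* and from 0.449 to 0.793 for *Dnm1l*. AF P 1 held 6 reads or fewer of each member, which limits the precision of its values.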
